A study of Mus musculus with 2 samples.

Results

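The genes of the RNA mark m6A, a methyl group on adenosine inside messenger RNA, were described here by their transcript levels. The members were the 10 rows of the deposited expression table whose gene symbol is Mettl3, Mettl14, Wtap, Ythdf1, Ythdf2, Ythdf3, Ythdc1, Ythdc2, Alkbh5 or Fto, out of 18067 genes with values. Bulk RNA-seq was made of cells labelled as intestinal stem cells of the mouse small intestine, with 1 library of the circBtnl1 knockout genotype and 1 library of the circBtnl1 wild-type genotype. circBtnl1 is a circular RNA that carries the name of the gene Btnl1, and the study set out to find transcription factors whose expression differed. The strain, age and sex of the mice, the way the knockout was made, and whether animals were pooled are not given in the sources used here. With 1 library in each group there is no spread between mice to set a difference against, so every difference below is one between 2 libraries, no p-value could be formed, and the difference has no replicate check.

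The m6A mark is written by a complex in which Mettl3 is the catalytic subunit, Mettl14 its RNA-binding partner and Wtap the adaptor that holds both in nuclear speckles. Proteins with a YTH domain read the mark: Ythdc1 in the nucleus, where it acts on splicing and export, Ythdf1, Ythdf2 and Ythdf3 in the cytoplasm, where they act on translation and decay, and Ythdc2, which also has an RNA helicase domain. Fto and Alkbh5, oxygenases of the AlkB family, remove the methyl group. In mouse intestine the pathway is known from deletions of Mettl3 and Mettl14, which impair crypt stem cells, and from Ythdf1, which supports Wnt signalling in stem cells.

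All 10 genes were expressed in both libraries. Of these, 9 had a higher TPM (a length-corrected share of the library's transcripts) in the knockout library, as did 70.2% of all measured genes. After the shift of the median gene was taken off, 7 of the 10 were higher, as were 6333 of 12666 measured genes by construction. Ythdc1, the nuclear reader, stood apart from the other members at 62.4 TPM in the knockout and 21.4 TPM in the wild-type library (2.92-fold higher). The other readers and the 3 writers were 1.19-fold to 1.90-fold higher, while the erasers were close to equal, at 0.912-fold for Alkbh5 and 1.11-fold for Fto. These figures include a shift of the whole table, in which the median of 12666 measured genes (those with an average of 1 TPM or more) had a log2 ratio of 0.39. The log2 ratio is log2((knockout TPM + 0.1)/(wild-type TPM + 0.1)), a scale that understates the difference of low genes.

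At a threshold of 2-fold, 1 of the 10 members (Ythdc1) was higher and 0 were lower in the knockout library. The shares over all measured genes were 23.1% past 2-fold on the high side and 5.25% on the low side, so that the members' count of 1 in 10 lies under the background and is not a result about the family. At 1.5-fold, 5 members were higher, against 40.1% of all measured genes, and 0 were lower, against 10.6%. The members' median log2 ratio was 0.60, above the 0.39 of all measured genes. Relative to the median gene the members' median was 0.21, Ythdc1 was the only member at least 2-fold higher (13.5% of all measured genes were) and 0 were at least 2-fold lower (10.2% of all measured genes were).

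**Figure D1:**
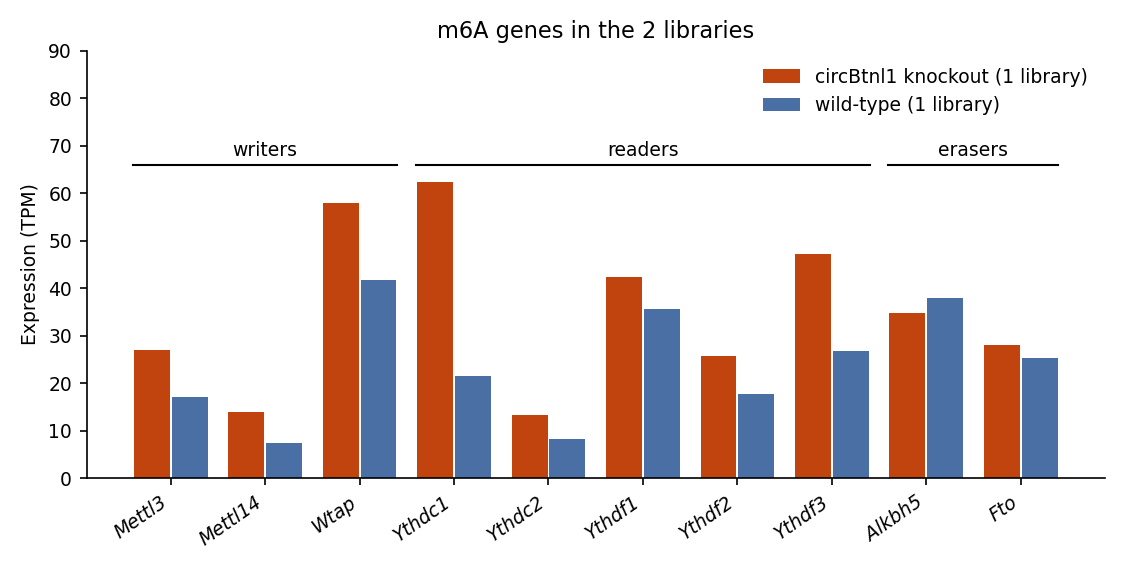
Expression (TPM, linear axis from 0) of the 10 m6A genes in the knockout library (left bar of each pair) and the wild-type library (right bar), grouped as writers, readers and erasers; each bar is 1 library, so there are no error bars. The widest gap is at Ythdc1 (62.4 against 21.4 TPM), and Alkbh5 is the single gene with the lower bar in the knockout library (34.7 against 38.03 TPM), joined by Fto and Ythdf1 only when ratios are taken relative to the median gene.

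The sequence upstream of the members at either end of the range of ratios is shown first, Ythdc1 with the highest and Alkbh5 with the lowest. Each run is the 200 bases from 250 to 51 bases before the RefSeq transcription start, on the plus strand of GRCm38.p6: chr5:86804016-86804215 for Ythdc1 and chr11:60537433-60537632 for Alkbh5. GENCODE places the start of the Alkbh5 gene further upstream than RefSeq does, so the Alkbh5 run lies inside the GENCODE gene position given below. Capitals mark matches, on either strand, to the GC box GGGCGG and to TGACGT, part of the cyclic AMP response element.

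Ythdc1: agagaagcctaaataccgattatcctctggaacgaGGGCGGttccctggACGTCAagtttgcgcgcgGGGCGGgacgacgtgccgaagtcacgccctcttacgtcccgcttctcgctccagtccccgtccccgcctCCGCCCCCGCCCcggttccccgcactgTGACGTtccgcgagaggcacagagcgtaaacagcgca
Alkbh5: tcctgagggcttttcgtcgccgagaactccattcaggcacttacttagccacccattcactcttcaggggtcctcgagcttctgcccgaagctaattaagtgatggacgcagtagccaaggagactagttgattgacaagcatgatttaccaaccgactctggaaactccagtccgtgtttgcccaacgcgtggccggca

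The Ythdc1 stretch holds 4 GC boxes and 2 TGACGT matches, and the Alkbh5 stretch holds neither. RefSeq windows of 300 bases (250 before to 50 after the start) were matched for 7 of the 10 members; those of Mettl14, Ythdf3 and Ythdc2 were not matched. In these windows a GC box was found in 5 of the 7 members (Wtap, Ythdc1, Ythdf1, Ythdf2 and Alkbh5), against 38.2% of 27025 genes. TGACGT was found in 2 of the 7, Ythdc1 and Ythdf1, against 8.37% of genes. CCAAT was found in 3 (Wtap, Ythdf1 and Alkbh5) against 41.1% of genes, the E-box CACGTG in 1 (Ythdf1) against 8.09%, and the ETS site CCGGAAG in 1 (Mettl3) against 9.93%. The palindrome TGACGTCA, which contains TGACGT, and TGATGNAAN, the element bound by Atf4 with C/EBP factors, were in 0 of the 7, against 2.03% and 4.50% of genes. The 27025 genes were not limited to those measured here, nor matched to the members by GC content. The members' windows held 52.0% (Mettl3) to 80.3% (a window of Wtap) GC. A gene was counted if any of its windows matched, and Wtap had several. These are matches of letters and were not set against any measure of binding.

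Among the writers, Mettl3 (chr14:52294841-52305128, minus strand, GRCm38, as for the positions below) stood at 27.04 TPM in the knockout and 16.98 TPM in the wild-type library, a log2 ratio of 0.67. Mettl14 (chr3:123368297-123386108, minus strand) stood at 13.9 TPM in the knockout and 7.32 TPM in the wild-type library, a log2 ratio of 0.92 and the second highest of the 10. Wtap (chr17:12966796-12994169, minus strand) was the most abundant writer, at 57.9 TPM in the knockout and 41.7 TPM in the wild-type library, a log2 ratio of 0.47. All 3 writers were higher in the knockout library as deposited and also relative to the median gene, where the log2 ratios were 0.28 for Mettl3, 0.53 for Mettl14 and 0.08 for Wtap. The Mettl3 locus overlaps the convergent gene Tox4 by 1561 bp, and 13.8% of the 50-base stretches of its longest coding transcript also occur in Tox4 transcripts on the other strand. Tox4 stood at 29.8 TPM in the knockout and 39.5 TPM in the wild-type library, and whether the counting kept strand is not given in the sources used here, so reads of the overlap cannot be assigned with certainty. Of the 50-base stretches of the longest coding Wtap transcript, 9.02% occur in other genes. Among these are the processed pseudogenes Gm14292 (9.02%) and Gm7381 (1.91%).

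Ratios between genes inside 1 library do not move with the scaling of that library. Mettl3 transcripts exceeded those of Mettl14, its partner in the heterodimer, 1.94-fold in the knockout and 2.32-fold in the wild-type library. Wtap exceeded Mettl14 4.16-fold in the knockout and 5.70-fold in the wild-type library, and Mettl3 2.14-fold in the knockout and 2.46-fold in the wild-type library. The 3 writers together made up 28.1% of the summed TPM of the 10 genes in the knockout and 27.6% in the wild-type library. The writers' part of the summed m6A gene RNA therefore differed by under 1 percentage point between the libraries, while the parts of readers and erasers differed by more.

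Ythdc1 (chr5:86804221-86836659, plus strand) had the widest difference of the readers and of all 10 members. Its log2 ratio was 1.54 as deposited and 1.15 relative to the median gene, and 88.6% of measured genes had a lower ratio. In the order of TPM among the 10 genes it was rank 1 in the knockout and rank 6 in the wild-type library. Ythdc1 made up 32.7% of the summed TPM of the 5 readers in the knockout and 19.5% in the wild-type library. Against the 3 Ythdf genes summed, Ythdc1 stood at a ratio of 0.542 in the knockout and 0.268 in the wild-type library, a 2.03-fold difference that does not depend on the scaling. The long non-coding gene Gm43055 overlaps Ythdc1 by 12886 bp on the same strand and shares 18.2% of the 50-base stretches of the longest coding Ythdc1 transcript. It has no row in the table, and Ythdc1 also has annotated transcripts with retained introns, which a gene-level value does not separate from coding ones.

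Ythdc2 (chr18:44827746-44889724, plus strand), the helicase-bearing reader known from the entry of mouse germ cells into meiosis, was the least abundant member in the knockout library, at 13.2 TPM, and stood at 8.14 TPM in the wild-type library. Its log2 ratio was 0.69, or 0.30 relative to the median gene. Its partner Meioc, a germ cell protein, was listed at 0 in both libraries. Ythdc1 exceeded Ythdc2 4.72-fold in the knockout and 2.63-fold in the wild-type library.

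The 3 cytoplasmic paralogs differed from each other in their ratios. Ythdf3 (chr3:16183212-16217037, plus strand) stood at 47.2 TPM in the knockout and 26.7 TPM in the wild-type library, a log2 ratio of 0.82, or 0.43 relative to the median gene. Ythdf2 (chr4:132184912-132212303, minus strand), the reader best known for bringing methylated RNA to decay, stood at 25.7 TPM in the knockout and 17.6 TPM in the wild-type library, a log2 ratio of 0.54, or 0.15 relative to the median gene. Ythdf1 (chr2:180904377-180920949, minus strand) stood at 42.3 TPM in the knockout and 35.7 TPM in the wild-type library, a log2 ratio of 0.24 that turned to -0.15 relative to the median gene. The most abundant paralog was Ythdf3 in the knockout library, with 41.0% of the summed Ythdf TPM against 33.4% in the wild-type library, and Ythdf1 in the wild-type library, with 36.7% in the knockout and 44.6% in the wild-type library. Ythdf2 held 22.3% in the knockout and 22.0% in the wild-type library. Genes of like GC content had a median log2 ratio of 0.96 for Ythdf3 and 0.32 for Ythdf1, in the bins described below. The part of GC content in these shares was not tested. No 50-base stretch of the longest coding transcript of Ythdf1 or Ythdf3 occurs in another annotated gene (0 in each). These transcripts therefore share no reads of that length with the other paralogs. Of the stretches of Ythdf2, 8.55% occur in other genes, among them the processed pseudogenes Gm6823 (7.65%) and Gm8401 (7.13%).

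**Figure D2:**
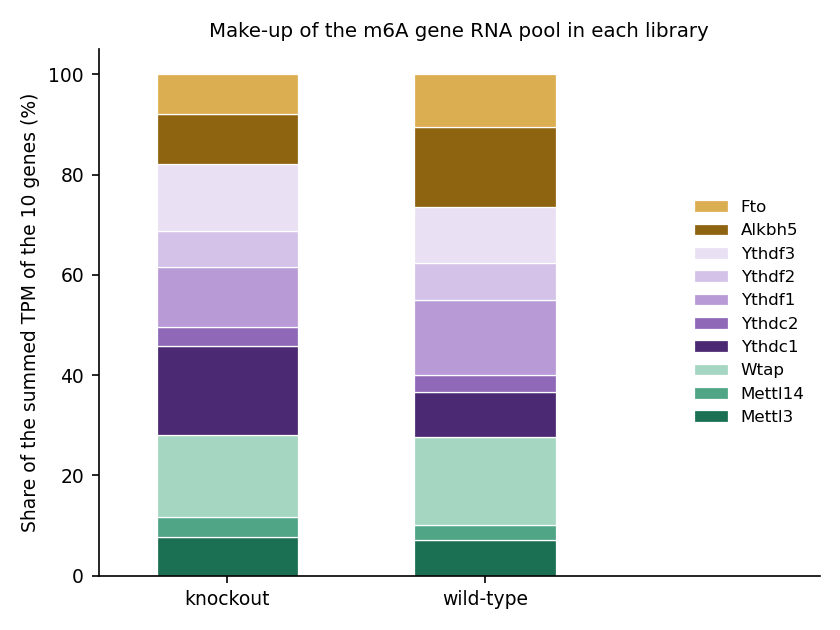
Share of the summed TPM of the 10 m6A genes (percent, vertical axis) that each gene held in the knockout library (left column) and the wild-type library (right column), with writers in greens at the bottom, readers in purples and erasers in browns at the top. The Ythdc1 segment is 17.7% in the knockout and 8.96% in the wild-type library, and the 2 eraser segments add up to 17.8% in the knockout and 26.5% in the wild-type library.

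Both erasers lay under the median gene. Alkbh5 (chr11:60536381-60558512, plus strand) stood at 34.7 TPM in the knockout and 38.03 TPM in the wild-type library, a log2 ratio of -0.13, or -0.52 relative to the median gene, and 24.2% of measured genes had a lower ratio. Fto (chr8:91313525-91668439, plus strand) stood at 28.1 TPM in the knockout and 25.3 TPM in the wild-type library, a log2 ratio of 0.15 that turned to -0.24 relative to the median gene. In the order of TPM among the 10 genes Alkbh5 was rank 5 in the knockout and rank 2 in the wild-type library. Summed, the erasers stood at 62.8 TPM in the knockout and 63.4 TPM in the wild-type library. The ratio of both erasers to Mettl3 and Mettl14 together was 1.53 in the knockout and 2.61 in the wild-type library, a 0.588-fold difference that is also free of the scaling.

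**Figure D3:**
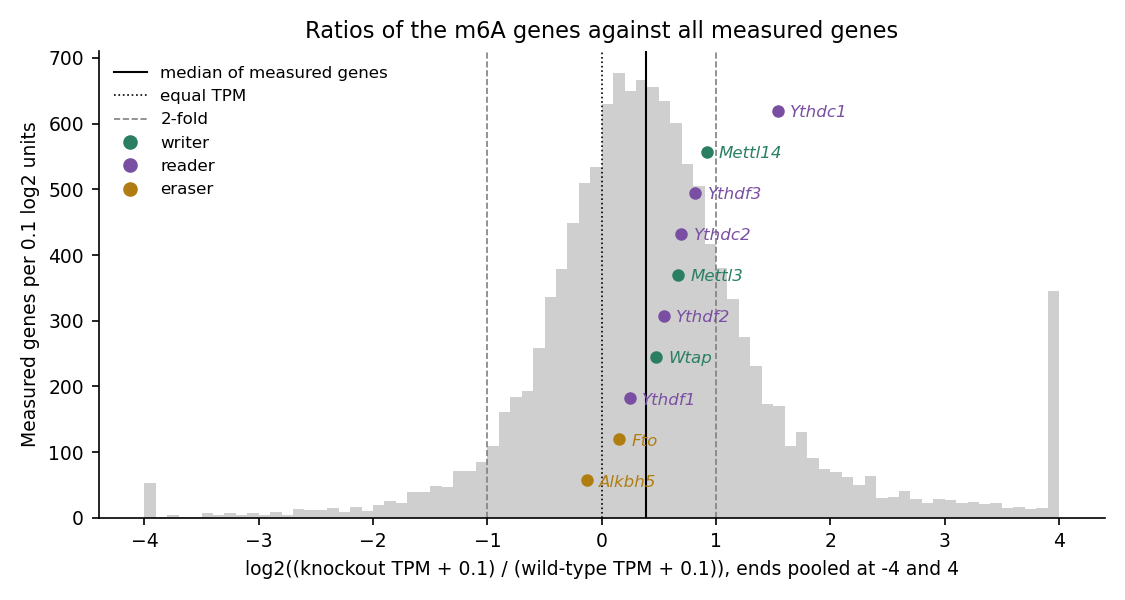
Log2 ratio of knockout over wild-type TPM (horizontal axis) of the 10 m6A genes as coloured points, set at arbitrary heights in order of ratio, over the histogram of 12666 measured genes (vertical axis, genes per 0.1 log2 units; the end bars pool values beyond the axis). Ythdc1 alone lies past the 2-fold line, both erasers lie left of the median of 0.39, and Alkbh5 (-0.13) is the only member left of 0.

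In order of TPM the members ran, in the knockout library, Ythdc1, Wtap, Ythdf3, Ythdf1, Alkbh5, Fto, Mettl3, Ythdf2, Mettl14 and Ythdc2. In the wild-type library the order was Wtap, Alkbh5, Ythdf1, Ythdf3, Fto, Ythdc1, Ythdf2, Mettl3, Ythdc2 and Mettl14. With 1 library each, it cannot be said which neighbours in either order differ beyond the spread between mice. The members lay in the middle of the range of levels: of all measured genes 35.8% to 77.7% had a lower TPM than a given member in the knockout library and 32.6% to 72.0% in the wild-type library. Depth was estimated from the steps of low values at about 16000000 reads in the knockout and 20250000 reads in the wild-type library, which would put roughly 442 (Mettl3) to 1941 (Ythdf3) reads on a member in the knockout library and 328 (Mettl3) to 2113 (Alkbh5) in the wild-type library. These are estimates from rounded values and the longest coding transcript, so no counting interval was formed from them. The 3 genes nearest to Ythdc1 by Euclidean distance of log2(TPM + 0.1) over the 2 libraries were Ddx27 (61.2 TPM in the knockout and 21.7 TPM in the wild-type library, distance 0.033), Cacybp (61.1 and 20.5 TPM, distance 0.072) and Smarca5 (62.7 and 20.3 TPM, distance 0.077). Those nearest to Alkbh5 were Ilvbl (35.3 and 38.3 TPM, distance 0.026), Zfp467 (35.3 and 38.1 TPM, distance 0.026) and Eloa (34.0 and 38.1 TPM, distance 0.030). A likeness over 2 libraries is carried by many genes of like level.

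Across 12398 measured genes with an annotated coding transcript, the log2 ratio was lower at higher transcript GC content (Spearman's rho -0.29) and at higher mean TPM (rho -0.31), as a description across genes, which are not independent replicates. When these genes were cut into 10 equal bins by GC content, the bin poorest in GC had a median log2 ratio of 0.96, and Mettl14 (0.92), Wtap (0.47) and Ythdf3 (0.82), which fall in it, all lay under that median. The median was 0.70 in the second bin, beside 0.69 for Ythdc2, and 0.54 in the third, which holds Ythdf2 (0.54) and Ythdc1 (1.54). It was 0.46 in the fourth bin, beside 0.15 for Fto, and 0.32 in the fifth, which holds Mettl3 (0.67), Ythdf1 (0.24) and Alkbh5 (-0.13). Against the median of genes of like GC content, 3 members thus lay above (Ythdc1, Mettl3 and, by under 0.01, Ythdf2) and 7 under. By construction, the genes of a bin lie evenly on both sides of its median. By level, Ythdc1, Ythdf1, Ythdf3 and Alkbh5 fell in the seventh of 10 bins, where the median was 0.31 and 15.0% of genes were past 2-fold on the high side. The part of GC content or level in these ratios was not tested.

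The other enzymes that write m6A, and the partners of the writer complex, had log2 ratios of -0.28 to 1.85. Of 11 such genes, all measured, 4 were 2-fold or more higher and 0 were 2-fold lower, against 23.1% and 5.25% of all measured genes. Their median log2 ratio of 0.32 lay under that of all genes. The 4 were Rbm15, which guides the complex to RNA (17.3 TPM in the knockout and 4.72 TPM in the wild-type library), Zcchc4 (16.95 and 5.45 TPM) and Mettl5 (20.99 and 9.49 TPM), which methylate ribosomal RNA, and Mettl16, which methylates U6 small nuclear RNA (16.7 and 6.42 TPM). Relative to the median gene 2 of the 11 were past 2-fold upward, Rbm15 (1.46) and Zcchc4 (1.23), against 13.5% of all measured genes. The close paralog Rbm15b stood at 16.9 TPM in the knockout and 14.8 TPM in the wild-type library. Among the other subunits of the complex, Virma stood at 16.04 and 13.3 TPM, Zc3h13 at 17.65 and 15.8 TPM and the ubiquitin ligase gene Cbll1 at 14.2 and 12.6 TPM, in the same order of libraries. Mettl4, a methyltransferase of U2 small nuclear RNA, lay between these and the 4 at 5.96 TPM in the knockout and 3.96 TPM in the wild-type library. The most abundant gene of the list was Trmt112, a cofactor of Mettl5, at 85.1 TPM in the knockout and 68.1 TPM in the wild-type library. The lowest ratio belonged to Pcif1, which methylates the adenosine next to the cap, at 25.4 TPM in the knockout and 30.8 TPM in the wild-type library. Some of these genes were chosen for naming after their values were seen (Mettl4, Mettl5, Mettl16, Rbm15b, Virma and Cbll1).

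Other proteins reported to bind m6A RNA had a median log2 ratio of 0.94 over 11 measured of 12 listed, of which 5 passed 2-fold upward and 0 downward, against 23.1% and 5.25% of all measured genes. Relative to the median gene, 2 of the 11 were at least 2-fold higher, against 13.5%. Igf2bp1, a fetal RNA-binding protein that stabilises its targets, stood at 4.94 TPM in the knockout and 0.34 TPM in the wild-type library. Fxr1, a paralog of the fragile X protein, stood at 53.9 TPM in the knockout and 14.2 TPM in the wild-type library (3.81-fold higher). The 3 others past 2-fold were the translation initiation factor subunit Eif3a (112 TPM in the knockout and 47.8 TPM in the wild-type library), Fxr2 (67.3 and 31.9 TPM) and Igf2bp2 (46.1 and 22.9 TPM), a set chosen after the values were seen. The most abundant gene, Hnrnpa2b1, a nuclear RNA-binding protein, stood at 344 TPM in the knockout and 247 TPM in the wild-type library. Rbmx (27.6 TPM in the knockout and 25.3 TPM in the wild-type library) and Prrc2a (169 and 202 TPM) were at the low end, and both lay under the median gene.

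Partners of the readers were described in 2 lists. Of the genes of cytoplasmic decay, 11 of 12 were measured, with 1 past 2-fold upward, which is under the 23.1% of all measured genes, 0 downward and a median log2 ratio of 0.38. The 1 was Rida, which links Ythdf2 to RNA cleavage, at 20.9 TPM in the knockout and 7.81 TPM in the wild-type library. With FPKM the upward count of this list was 2. Cnot2, of the CCR4-NOT deadenylase complex, stood at 50.02 TPM in the knockout and 25.5 TPM in the wild-type library, while Cnot3 (75.8 and 85.8 TPM) and the decay helicase gene Upf1 (50.2 and 51.7 TPM) were near equal. Among all measured genes 70.2% were higher in the knockout library. So were all 6 genes listed as nuclear partners of Ythdc1, though Zcchc8 turned to -0.0045 under trimmed mean scaling. Their median log2 ratio was 0.67 and 2 of them were at least 2-fold higher, against 23.1% of all measured genes, a count that fell to 1 under either other scaling. These were the splicing factor genes Srsf10 (63.8 TPM in the knockout and 22.9 TPM in the wild-type library) and Srsf7 (96.2 and 38.95 TPM), of which Srsf7 stood at a log2 ratio of 0.91 relative to the median gene. The export factor gene Nxf1 stood at 103 TPM in the knockout and 75.4 TPM in the wild-type library, and the nuclear exosome adaptor gene Zcchc8 at 43.4 and 32.9 TPM.

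**Figure D4:**
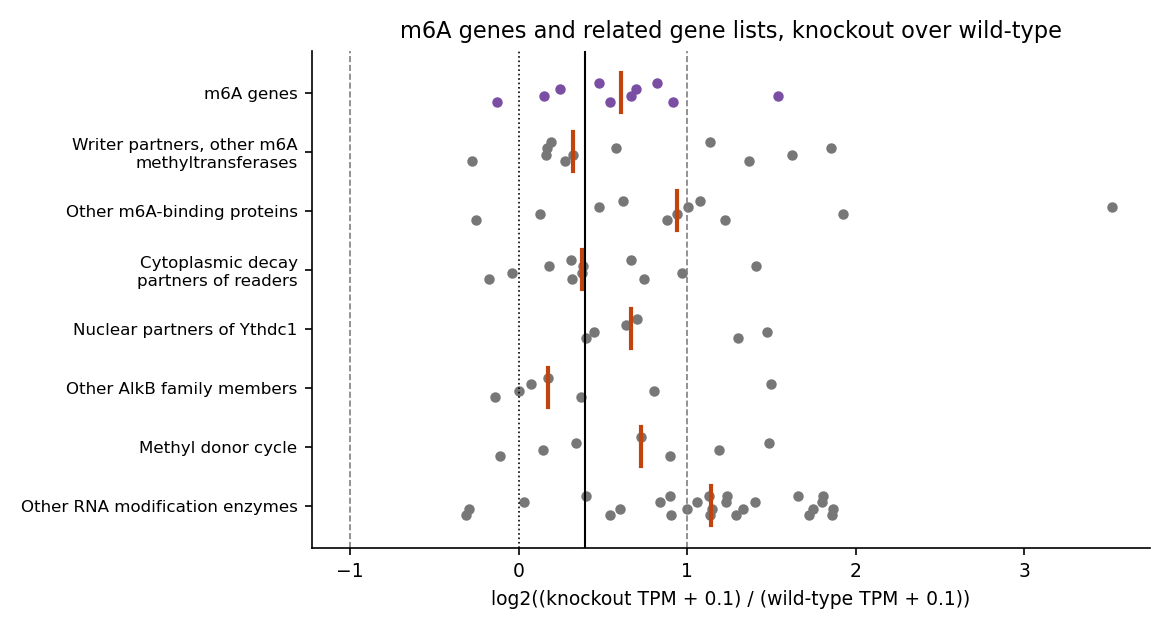
Log2 ratio of knockout over wild-type TPM (horizontal axis) of each measured gene (points) in the m6A genes and 7 related lists (rows), with the median of each row as a short red bar; the solid line is the median of all measured genes (0.39), the dotted line equal TPM and the dashed lines 2-fold. The highest row median is that of other RNA modification enzymes (1.14) and the lowest that of other AlkB family members (0.17).

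The relatives of the erasers had a lower median than the partners of the readers. The 7 other AlkB genes had a median log2 ratio of 0.17, or -0.22 relative to the median gene, with 1 past 2-fold upward, under the 23.1% of all measured genes, and 0 downward. The 1 was Alkbh1, which demethylates transfer RNA, at 16.4 TPM in the knockout and 5.74 TPM in the wild-type library. Alkbh3 stood at 51.2 TPM in the knockout and 29.4 TPM in the wild-type library, Alkbh6 at 42.5 and 42.4 TPM, and Alkbh8, which modifies transfer RNA, at 12.2 and 13.4 TPM.

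Genes of the cycle that supplies the methyl donor S-adenosylmethionine had a median log2 ratio of 0.73 over 7 measured of 8 listed, with 2 past 2-fold upward, against 23.1% of all measured genes, and 0 downward. The upward count was 1 under either other scaling, with a pseudocount of 1 and with a floor of 5 TPM. The median was 0.53 with a floor of 5 TPM and also with no floor. With no floor 1 gene passed 2-fold downward, the unmeasured Bhmt (0.06 TPM in the knockout and 0.88 TPM in the wild-type library), named after its values were seen. The 2 past 2-fold upward were the methionine synthase gene Mtr (5.55 TPM in the knockout and 2.38 TPM in the wild-type library) and its reductase gene Mtrr (11.2 and 3.93 TPM). Mat2a, the S-adenosylmethionine synthetase whose mRNA is a known target of Mettl16, stood at 207 TPM in the knockout and 125 TPM in the wild-type library. Its regulatory subunit gene Mat2b stood at 57.6 TPM in the knockout and 52.0 TPM in the wild-type library, and Ahcy, which clears the product S-adenosylhomocysteine, at 87.3 and 94.2 TPM.

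The enzymes of other RNA modifications were higher as a list than the 10 m6A genes. Of 28 listed genes 27 were in the table and 26 were measured, and 16 of these (with a median log2 ratio of 1.14 over the 26) passed 2-fold upward in the knockout library and 0 passed it downward, against 23.1% and 5.25% of all measured genes. Relative to the median gene the median was 0.75 and 8 of the 26 were at least 2-fold higher, against 13.5%. Ftsj3, a methyltransferase of ribosome assembly, stood at 53.4 TPM in the knockout and 14.6 TPM in the wild-type library, and Trmt10c, of mitochondrial transfer RNA processing, at 29.1 and 7.97 TPM. Fbl, the ribosomal RNA methyltransferase fibrillarin, was the most abundant, at 235 TPM in the knockout and 100.04 TPM in the wild-type library. Adar, which converts adenosine to inosine (44.7 TPM in the knockout and 54.97 TPM in the wild-type library), and Nsun6 (5.91 and 7.36 TPM) were lowest. The median of the m6A genes, at 0.60, lay between that of all measured genes and that of these enzymes, and the difference between the lists was not tested.

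The libraries differed in ways beyond the genotype label. Btnl1 stood at 65.4 TPM in the knockout and 59.3 TPM in the wild-type library, a gene-level value that does not separate circular from linear RNA and so checks no label. The 5 stem cell markers summed to 33.4 TPM in the knockout and 39.7 TPM in the wild-type library. Of these, Axin2 (19.25 TPM in the knockout and 16.9 TPM in the wild-type library) and Ascl2 (4.83 and 3.88 TPM) were slightly higher in the knockout library before the shift of the median gene was taken off and lower after it. Smoc2 (7.72 and 15.5 TPM), Lgr5 (1.55 and 3.13 TPM) and Olfm4 (listed at 0 and 0.2 TPM) were lower. The 5 epithelial markers summed to 8085 TPM in the knockout and 14789 TPM in the wild-type library, so both libraries held epithelial RNA. All 5 were lower in the knockout library. Krt20 (919 TPM in the knockout and 2065 TPM in the wild-type library) and Vil1 (467 and 1019 TPM) were more than 2-fold lower. Both stood far above every stem cell marker, and the stem cell label was not tested. The 5 leukocyte markers summed to 7.94 TPM in the knockout and 17.1 TPM in the wild-type library, the 5 fibroblast and muscle markers to 13.3 and 19.6 TPM, the 2 endothelial markers to 1.30 and 1.11 TPM, and the 2 hemoglobin genes to 5.56 and 157 TPM. The Y-linked gene Eif2s3y stood at 9.48 TPM in the knockout and 0.96 TPM in the wild-type library, and Ddx3y at 4.27 and 0.04 TPM. The sex of the mice is not given. Y-linked RNA, and any sex difference between the libraries, cannot be told apart from genotype in any ratio above. In bulk RNA, fewer cells of a type and less RNA per cell cannot be told apart, and the part of these differences in the m6A gene values was not tested.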

How the data were processed

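RNA of 1 circBtnl1 knockout and 1 wild-type library was read on BGISEQ-500, per the labels. The authors deposited 1 gene table with FPKM values (length-corrected fragments, set against library size) and TPM values for each library, both rounded to 2 decimals, per the file headers. The submitters' processing notes name mm10, Bowtie2, RSEM and DESeq2, with no version or role. TPM and FPKM of a library differ by 1 constant, and TPM is a share, so abundant genes lower all others. Of 18068 lines, 1 without values was left out, and 0 columns of values were unused.

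Ratios, lists and medians were computed with pandas 2.3.3 and numpy 2.4.6 in Python 3.11.15. The ratios and the trimmed mean scaling were tested on simulated data with planted changes and no noise. The lists, depth estimate, GC bins and promoter matches were not tested in this way. The pseudocount was 0.1 TPM and the floor a mean of 1 TPM; all 10 members passed it. The table holds no counts, so the interval planned for counts did not apply. Depth was estimated from low values: at the best depth 57.1% of 247 genes in the knockout and 59.4% of 197 in the wild-type library lay within 0.15 of a whole read (chance gives 30% at a fixed depth), and the depth ranged over 16000000 to 21000000 and 19000000 to 24000000 reads with the length offset. Positions, transcripts and GC content came from GENCODE M21 (GRCm38), promoters from RefSeq (GRCm38.p6). The m6A genes and lists were chosen with earlier results of these data known. Named genes were the members, Btnl1, and per list the 2 highest, 2 lowest and most abundant. The 3 genes nearest to the members with the highest and lowest ratio were also named. Others are said to be chosen later, as were Tox4, Eif2s3y, Ddx3y and Meioc. Alternatives were FPKM, pseudocounts of 1 and 0.01, floors of 5 TPM and none, 2 other scalings and a 1.5-fold threshold.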

Additional observations from a re-analysis of the deposited data

How the results depend on the processing

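The scaling moved the ratios, and the fold threshold, the scaling and the floor moved the counts of members or of all genes. Relative to the median gene and under trimmed mean scaling, the members' median log2 ratio was 0.21 and 0.20 and that of all genes 0 and -0.013, with 1716 and 1687 genes at least 2-fold higher and 1295 and 1317 lower; Fto and Ythdf1 turned below 0. With a floor of 5 TPM 1907 genes were at least 2-fold higher, and with no floor 1176 were lower. The floor also changes how many genes are counted (12666 at 1 TPM and 18067 with none), so these counts are not rates. At 1.5-fold, 5 members and 5079 genes were higher and 1344 genes lower. The count of members at least 2-fold higher stayed at 1 under the alternatives of unit, pseudocount, floor and scaling, and that of lower members at 0 under these and at 1.5-fold. Of 70 member ratios under alternatives 20 moved by 0.1 or more on the log2 scale, all under the 2 scalings. These moves were fixed in advance, since the scalings take 0.39 and 0.40 off every ratio. A sign change was counted only for log2 ratios of at least 1 either way, among the members Ythdc1 alone (1.54). None (0) was counted, and shifts of that size could not turn its sign. Of 147 list values 30 moved, among them 1 count with FPKM and 1 count with a pseudocount of 1. Values were rounded to 2 decimals, which limits low genes such as Igf2bp1. No paired analysis was possible because each group had 1 library, and for the same reason no library could be left out.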
